A study of Mus musculus with 4 samples.

Results

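The 10 genes described here encode the proteases and the thiol reductase that take proteins apart in endosomes and lysosomes of antigen-presenting cells. They were chosen by symbol, as Ctss, Ctsl, Ctsb, Ctsd, Ctsz, Ctsh, Ctsc, Ctse, Lgmn and Ifi30, and each symbol matched exactly 1 of 46078 gene rows. Gene counts came from 4 mouse RNA libraries of sorted dendritic cells (DCs), 2 of the genotype CD11c-cre-Il33flx/flx (Il33flx) and 2 of the genotype CD11c-cre (Ctrl). Every mouse, Il33flx and Ctrl alike, carried the CD11c-cre transgene and had been injected with EL4-Flt3 tumour cells 10 days earlier. The promoter of CD11c drives Cre in DCs and in some other myeloid cells, so a floxed allele is not lost in DCs alone. The tissue was spleen together with mesenteric lymph node, and the sort took CD45+, CD64-, CD11b+, MHCII+ and CD103+ cells. The labels give no ages and do not say if libraries of 1 genotype are separate mice or pools, so the p-values below reflect a spread that may be technical. The study compared transcription in CD103-positive DCs of mice whose DCs can lose Il33 with that of control mice.

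In DCs, proteins taken up from outside, and the invariant chain that fills the groove of new MHC class II molecules, are cut by endosomal proteases. Most are cysteine proteases of the papain family or aspartic proteases, made as inactive precursors and activated as the compartment becomes acidic. Cathepsin S is known as the protease that makes the last large cut in the invariant chain in DCs and B cells, while cathepsin L does this in the cortical epithelium of the thymus. Too much proteolysis destroys peptides before they are loaded, and DCs are known for lower lysosomal proteolysis than macrophages.

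The members fall into catalytic families that can be seen in their coding sequence. The coding stretch around the catalytic residue is shown for the 8 cathepsins, read from GENCODE M21 transcripts of build GRCm38, with the codon of the catalytic residue in capitals. Where a stretch crosses a splice junction, its coordinates span the intron. The first 6 lines are the cysteine cathepsins, in which the capitals mark the catalytic cysteine.
Ctss, chr3:95543160-95545368, plus strand: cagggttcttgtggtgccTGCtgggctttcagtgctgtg
Ctsl, chr13:64367057-64367862, minus strand: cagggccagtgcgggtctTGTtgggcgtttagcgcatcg
Ctsb, chr14:63135699-63136421, plus strand: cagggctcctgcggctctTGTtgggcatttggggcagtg
Ctsz, chr2:174438178-174438216, minus strand: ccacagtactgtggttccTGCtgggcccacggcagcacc
Ctsh, chr9:90064255-90064542, plus strand: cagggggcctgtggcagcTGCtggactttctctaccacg
Ctsc, chr7:88302297-88308047, plus strand: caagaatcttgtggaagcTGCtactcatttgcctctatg
In the aspartic cathepsins the capitals mark the first catalytic aspartate.
Ctsd, chr7:142383455-142383493, minus strand: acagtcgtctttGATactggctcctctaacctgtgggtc
Ctse, chr1:131663359-131663397, plus strand: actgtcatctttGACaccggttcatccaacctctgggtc
Legumain, encoded by Lgmn, is a cysteine protease of another family and Ifi30 encodes a thiol reductase, so neither has such a stretch. GENCODE M21 annotates no coding sequence for Ifi30 and marks a transcript of it with a genome sequence error.

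Promoters of 250 bases before to 50 bases after a RefSeq start (GRCm38.p6) were available for 7 of the 10 members, as 8 promoters. These starts are not always the outer end of the gene in GENCODE M21. The windows of Ctsl and the second of Lgmn lie wholly inside the annotated gene. The starts used for Ctsd and the first of Lgmn also lie inside it. They were searched on both strands for CACGTG, the core of the element that TFEB-family factors bind in lysosomal genes, and for TTCNNNGAA, GAGGAAG and a pair of GAAA with any 2 bases between them, which resemble sites of STAT, PU.1 and interferon-response factors. CACGTG stood in 4 of the 8 promoters, namely those of Ctsd, Ifi30 and Ctsl and the second of Lgmn, and in 7.15% of all 32851 promoters. Ctsd was the only one of these with more than 1 copy. The GAAA pair was in the promoter of Ctss and in 3.44% of all promoters. GAGGAAG was in those of Ctss and Ctsc and in 13.6% of all, and TTCNNNGAA was in that of Ctsc and in 8.30% of all. None of the 4 motifs overlapped another in these promoters, and Ctsz held no match. Such matches describe letters and are not binding sites. The promoters of Ctss, Ctsz and Ctsd are shown, because Ctss and Ctsz lay on opposite sides of their means in all 4 libraries and Ctsd held CACGTG more than once. Capitals mark the motifs, where CTTCCTC is GAGGAAG read on the other strand.
Ctss promoter, chr3:95526536-95526835, plus strand: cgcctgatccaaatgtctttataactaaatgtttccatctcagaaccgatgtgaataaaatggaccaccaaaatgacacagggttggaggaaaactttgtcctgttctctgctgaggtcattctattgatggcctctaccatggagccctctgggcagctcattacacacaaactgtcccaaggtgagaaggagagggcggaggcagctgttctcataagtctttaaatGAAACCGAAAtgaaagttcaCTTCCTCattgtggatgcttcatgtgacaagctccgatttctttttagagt
Ctsz promoter, chr2:174438990-174439289, minus strand: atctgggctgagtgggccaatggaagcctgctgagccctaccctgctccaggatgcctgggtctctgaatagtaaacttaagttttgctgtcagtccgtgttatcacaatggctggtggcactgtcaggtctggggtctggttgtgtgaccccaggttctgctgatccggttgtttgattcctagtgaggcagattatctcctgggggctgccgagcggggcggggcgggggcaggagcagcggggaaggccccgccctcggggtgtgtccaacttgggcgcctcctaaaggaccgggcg
Ctsd promoter, chr7:142387778-142388077, minus strand: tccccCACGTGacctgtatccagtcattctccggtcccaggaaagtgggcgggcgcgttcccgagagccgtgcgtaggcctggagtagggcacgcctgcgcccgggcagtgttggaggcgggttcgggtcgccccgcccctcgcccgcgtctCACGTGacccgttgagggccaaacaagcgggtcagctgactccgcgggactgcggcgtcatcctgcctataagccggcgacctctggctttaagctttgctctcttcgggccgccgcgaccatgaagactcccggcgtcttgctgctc

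Libraries held 67707682 and 69983532 gene counts in Il33flx and 81217828 and 75094424 in Ctrl. A limit of 3 counts corresponded to 0.0369 to 0.0443 counts per 1000000 gene counts (CPM), far below every member, and covers counting error alone. CPM values of the genes were corrected by TMM factors. Il33 itself had 4 and 0 counts in Il33flx and 4 and 8 counts in Ctrl, too few to check the labels. Of the genes that define the sort, H2-Ab1 (MHC class II) stood at 33060 to 42770 CPM, Itgae (CD103) at 56.8 to 115.7 CPM and Itgam (CD11b) at 97.8 to 128 CPM. Fcgr1, the gene of CD64, against which the cells were sorted, was at 3.66 to 5.50 CPM. Xcr1 and Clec9a, markers of type 1 DCs, which mostly lack CD11b, were also present, at 506 to 841 and 99.8 to 120 CPM, and Sirpa, a marker of type 2 DCs, at 258 to 319 CPM. On the first principal component, 50% of the variance, Ctrl 1 stood at 70.1 and the other libraries at -26.2 to -18.8.

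Together the 10 members took 0.517% and 0.485% of gene counts in Il33flx, against 0.505% and 0.480% in Ctrl. Their summed level was 4955 and 4791 CPM in Il33flx and 5340 and 4794 CPM in Ctrl, or 4873 ± 116 and 5067 ± 387 CPM (SD, n = 2 each). Ctsz, Ctsb, Ctss and Ctsh made up 81.1% and 82.7% of that sum in Il33flx and 82.9% and 81.8% in Ctrl. The 6 cysteine cathepsins summed to 4416 and 4328 CPM in Il33flx and 4778 and 4320 CPM in Ctrl, and the 2 aspartic cathepsins to 223 and 178 CPM in Il33flx and 231 and 177 CPM in Ctrl. In each of these sums the groups overlapped.

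Levels were compared between genes as CPM per kb of the transcript with the longest coding sequence. For Ifi30, which has no annotated coding sequence, all 981 annotated exon bases were used. Ctsz, a carboxypeptidase, was highest at 844 ± 6.56 in Il33flx and 945 ± 189 in Ctrl (CPM per kb, SD, n = 2 each). Ctss followed at 642 ± 27.0 in Il33flx and 545 ± 155 in Ctrl, and Ctsh, an aminopeptidase, at 469 ± 24.2 in Il33flx and 451 ± 63.7 in Ctrl. Ctsb, Ifi30 and Ctsc lay between 135 and 313 CPM per kb over all libraries, Ctsd between 76.0 and 101, and Lgmn between 37.4 and 53.9. Ctse and Ctsl were lowest, at 5.28 to 7.45 CPM per kb. The order was the same in every library except that Ctsh was above Ctss in Ctrl 1 and below it in the others. The ranges of Ctss and Ctsh, of Ctsb and Ifi30 and of Ctse and Ctsl overlapped over the 4 libraries, and the other neighbours in the order did not. Divided instead by all annotated exon bases, which are many for Ctsh, Ctsc and Ctsl, the order ran Ctsz, Ctss, Ifi30, Ctsb, Ctsh, Ctsd, Ctsc, Lgmn, Ctse and Ctsl, so the middle ranks rest on the length used.

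**Figure D1:**
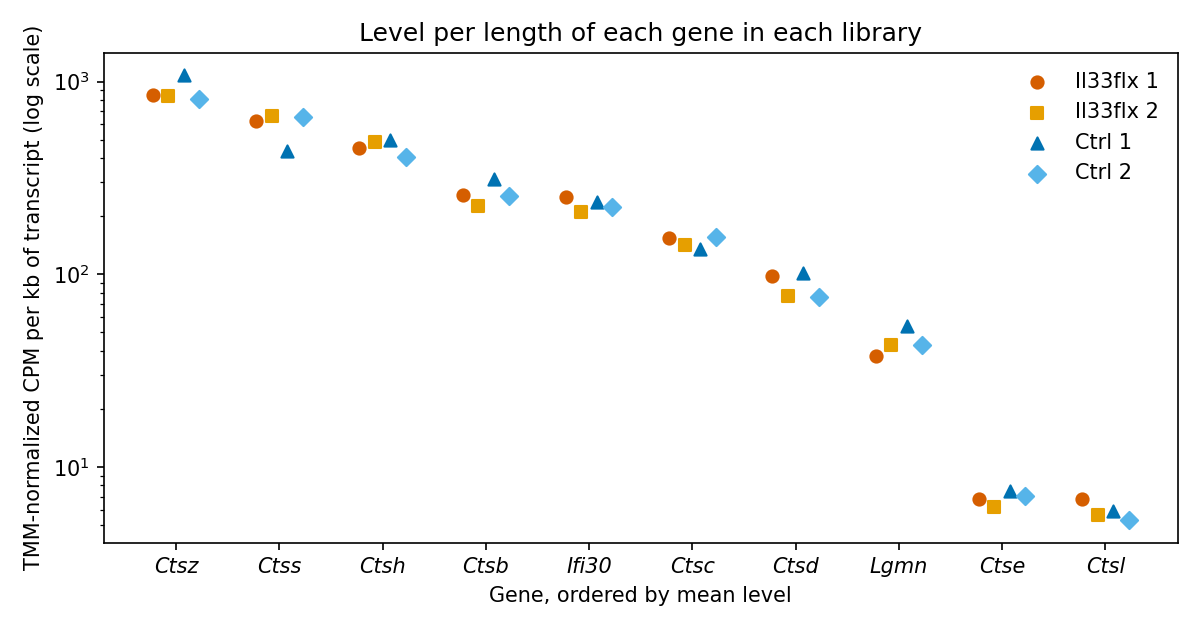
Level of each member in TMM-normalized CPM per kb of transcript (log scale, y axis) for each of the 10 genes (x axis), with 1 point per library, Il33flx left of Ctrl. Ctsz, Ctss and Ctsh were highest and Ctse and Ctsl lowest in all 4 libraries, and the points of a gene lie close together relative to the differences between genes.

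Among all 46078 gene rows by CPM, Ctsb ranked 58 to 82 and Ctsz 55 to 70 over the 4 libraries. Ctsh ranked 130 to 162, while Ctss ranked 108 and 101 in Il33flx and 225 and 110 in Ctrl. At the other end Ctse ranked 6769 to 7475 and Ctsl 7435 to 8019.

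No member was called in the comparison of Il33flx with Ctrl. All 10 passed the filter on low counts, and at an adjusted p below 0.05 in edgeR's quasi-likelihood test 0 of the 10 were called, as against 1 of 14995 genes tested, or 0.00667%. At an unadjusted p below 0.05 stood 0 members, against 3.26% of all genes tested, and DESeq2 and limma-voom also called 0 members. Fitted log2 fold changes of Il33flx over Ctrl were above 0 for 5 members and below 0 for 5, from -0.27 to 0.23, with a median of -0.0017 against 0.0135 over all genes tested. The 95% interval of every member lay within a 2-fold change in either direction, with bounds of 0.594-fold and 1.73-fold at the extremes. The same held for 52.8% of all genes tested and for 85.2% of the 8050 genes with at least 10 CPM on average, a level that all 10 members reached. Each interval covers 1 gene and is not adjusted for the number of genes. With 1 library left out the direction turned for Ctss, Ctsz, Ctsd, Ctsh, Ctsc and Ifi30, and it held for Ctsl, Ctsb, Ctse and Lgmn.

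**Figure D2:**
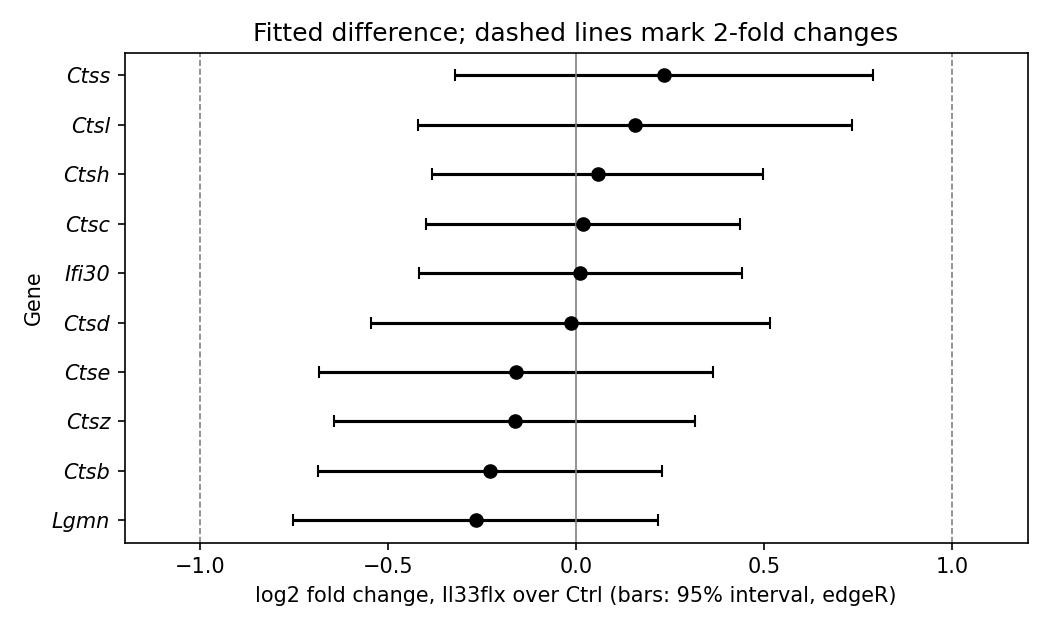
Fitted log2 fold change of Il33flx over Ctrl (x axis, points) with its 95% interval (bars, edgeR, n = 2 libraries each) for the 10 genes (y axis). All intervals include 0 and lie inside the dashed lines at 2-fold changes, from -0.75 for Lgmn to 0.79 for Ctss.

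Cathepsin S, the invariant chain protease, is encoded by Ctss (ENSMUSG00000038642, chromosome 3, 95526786 to 95556403, plus strand). It read 843 and 895 CPM in Il33flx, against 590 and 887 CPM in Ctrl. Ctrl 1 alone was low and the groups overlapped. Its log2 fold change of 0.23 ± 0.23 SE had a 95% interval of -0.32 to 0.79 (adjusted p = 0.995, edgeR). Without Ctrl 1 it was -0.02, and without Ctrl 2 it was 0.55 (adjusted p = 0.142, edgeR), so the direction rested on Ctrl 1.

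Ctsl (ENSMUSG00000021477, chromosome 13, 64359337 to 64370890, minus strand) encodes cathepsin L, an endoprotease of lysosomes. It was one of the lowest members, at 13.4 and 11.1 CPM in Il33flx and 11.6 and 10.4 CPM in Ctrl, with overlapping groups (log2 fold change 0.16, 95% interval -0.42 to 0.73, adjusted p = 0.995, edgeR). Its placental relatives Ctsq, Ctsr, Ctsj, Ctsm, Cts3, Cts6, Cts7 and Cts8 and its paralog Ctsll3 had 0 counts in all 4 libraries.

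Ctsb (ENSMUSG00000021939, chromosome 14, 63122462 to 63145923, plus strand) encodes cathepsin B, which cuts within chains and also trims dipeptides from their carboxyl end. It read 1223 and 1072 CPM in Il33flx and 1482 and 1206 CPM in Ctrl. Ctrl 1 was highest, and Ctrl 2 lay between the Il33flx libraries. The log2 fold change was -0.23 ± 0.19 SE (95% interval -0.69 to 0.23, adjusted p = 0.995, edgeR), and -0.06 without Ctrl 1. Exons of Fdft1 on the opposite strand cover 12.8% of its exon bases, and Fdft1 had 1934 to 3018 counts against 75907 to 113757 for Ctsb.

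Ctsz (ENSMUSG00000016256, chromosome 2, 174427493 to 174439039, minus strand) encodes cathepsin Z, also called cathepsin X. It had 1223 and 1209 CPM in Il33flx and 1555 and 1170 CPM in Ctrl. Ctrl 1 was again the highest library and Ctrl 2 the lowest, so the groups overlapped. The log2 fold change was -0.16 ± 0.20 SE (95% interval -0.64 to 0.31, adjusted p = 0.995, edgeR), and 0.06 without Ctrl 1.

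Ctsh (ENSMUSG00000032359, chromosome 9, 90054152 to 90076089, plus strand) encodes cathepsin H. Its 731 and 786 CPM in Il33flx lay between the 802 and 656 CPM of the Ctrl libraries. The log2 fold change was 0.06 ± 0.18 SE (95% interval -0.38 to 0.50, adjusted p = 0.995, edgeR).

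Ctsc (ENSMUSG00000030560, chromosome 7, 88278085 to 88310888, plus strand) encodes the dipeptidyl peptidase that activates serine proteases of cytotoxic and neutrophil granules. It read 383 and 354 CPM in Il33flx and 337 and 390 CPM in Ctrl, with the Il33flx values inside the Ctrl range. It had the smallest ratio of its highest to its lowest library among the members, 1.16, and a log2 fold change of 0.02 ± 0.17 SE (95% interval -0.40 to 0.44, adjusted p = 0.9999, edgeR).

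The aspartic cathepsins differed in level and were both without a call. Ctsd (ENSMUSG00000007891, chromosome 7, 142375911 to 142388038, minus strand), the main aspartic protease of lysosomes, read 209 and 165 CPM in Il33flx and 215 and 162 CPM in Ctrl. Each group thus held 1 higher and 1 lower library, and the log2 fold change was -0.01 ± 0.22 SE (95% interval -0.54 to 0.52, adjusted p = 0.9999, edgeR). GENCODE M21 has a gene model, Gm49369, that shares 34.4% of the exon bases of Ctsd on the same strand, but the count table has no row for it.

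Ctse (ENSMUSG00000004552, chromosome 1, 131638306 to 131675505, plus strand) encodes cathepsin E, an endosomal aspartic protease. It read 14.5 and 13.1 CPM in Il33flx and 15.8 and 15.05 CPM in Ctrl, and was the only member whose groups did not overlap. That is 1 of 10 members lower without overlap, against 14.9% of all genes tested, and 0 of 10 higher, against 15.4%. In either direction it is 1 of 10, against 30.3% of all genes tested. These groupings rest on the TMM factors. With CPM from gene counts alone, the groups of Ctse overlapped, and Ctsl and Ctsh were higher in Il33flx without overlap. No share over all genes was taken at that scaling. The log2 fold change of Ctse was -0.16 ± 0.22 SE (95% interval -0.68 to 0.36, adjusted p = 0.995, edgeR).

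Lgmn (ENSMUSG00000021190, chromosome 12, 102394084 to 102439813, minus strand) encodes legumain, which cuts after asparagine and helps to mature other lysosomal proteases. It read 68.7 and 78.7 CPM in Il33flx and 98.9 and 78.4 CPM in Ctrl. Ctrl 1 was highest, while Ctrl 2 and Il33flx 2 were almost equal. Lgmn had the smallest unadjusted p of the members, 0.231, at a log2 fold change of -0.27 ± 0.20 SE (95% interval -0.75 to 0.22, adjusted p = 0.995, edgeR), and -0.08 without Ctrl 1. The genes most like it over the 4 libraries, by the root mean square distance of centred log2 CPM among 9275 genes of at least 5 CPM, were Vars (0.0056), Ighg3 (0.0080) and Vps11 (0.0139). As many as 1293 genes lay within 0.1 of Lgmn, so the likeness over 4 libraries is a weak description.

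Ifi30 (ENSMUSG00000031838, chromosome 8, 70762774 to 70766663, minus strand) encodes the interferon-gamma-inducible reductase GILT, which opens disulfide bonds of antigens in lysosomes. It read 247 and 207 CPM in Il33flx and 232 and 219 CPM in Ctrl, where the Ctrl values lay inside the Il33flx range. The log2 fold change was 0.01 ± 0.18 SE (95% interval -0.42 to 0.44, adjusted p = 0.9999, edgeR).

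In the authors' deposited table of their DESeq2 comparison, 51 of 15001 genes had an adjusted p below 0.05, or 0.34%, and 0 of the 10 members did. There the log2 fold changes of the members ran from -0.29 for Lgmn to 0.21 for Ctss in the authors' deposited table, and their adjusted p-values were 0.999997 each.

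The members deviated most in Ctrl 1. Measured as the mean absolute distance from the mean of the 4 libraries in log2 CPM, the members deviated by 0.101 in Il33flx 1 and 0.114 in Il33flx 2, against 0.186 in Ctrl 1 and 0.108 in Ctrl 2. Ctrl 1 was the highest library for 6 members and the lowest for 2 in TMM-corrected CPM. With CPM from gene counts alone, Ctsd and Ctse were highest in Il33flx 1 and Ctsh in Il33flx 2. The same count was not made over all genes, over which Ctrl 1 also stood apart on the first principal component. In Ctrl 1, Lgmn stood 0.30, Ctsz 0.28, Ctsb 0.26 and Ctsd 0.21 above their means, while Ctss stood 0.43 below its mean (log2 CPM).

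**Figure D3:**
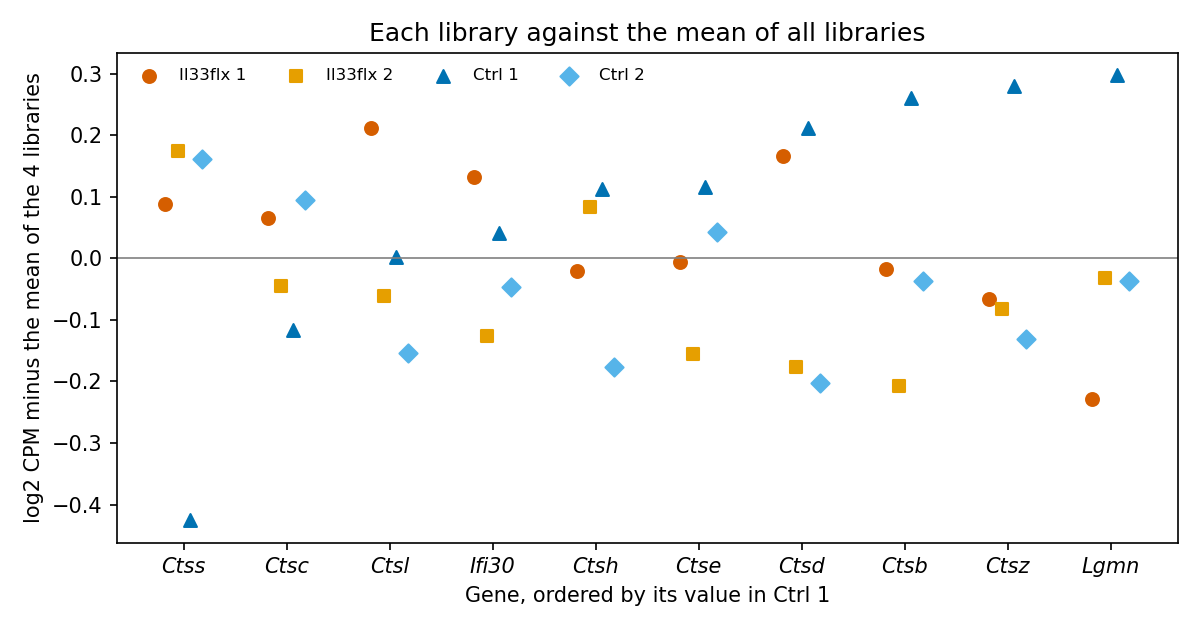
Log2 CPM of each member minus its mean over the 4 libraries (y axis), 1 point per library, for the 10 genes ordered by their value in Ctrl 1 (x axis). Ctrl 1 stands lowest for Ctss, at -0.43, and highest for Lgmn, at 0.30, while the other libraries lie between -0.23 and 0.21.

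The balance between members therefore differed in Ctrl 1. Ctss read 0.690 and 0.740 times as high as Ctsz in Il33flx, against 0.380 times in Ctrl 1 and 0.759 times in Ctrl 2 (ratios of CPM, not corrected for length). Relative to Ctsb the ratio was 0.690 and 0.835 in Il33flx, 0.398 in Ctrl 1 and 0.735 in Ctrl 2, and relative to Lgmn it was 12.3 and 11.4 in Il33flx, 5.97 in Ctrl 1 and 11.3 in Ctrl 2. The ratio of Ctsb to Ctsz was even, at 1.0 and 0.886 in Il33flx and 0.953 and 1.03 in Ctrl. Sppl2a, whose product clears the invariant chain stub that cathepsin S leaves in the membrane, was low in Ctrl 1 as well. It read 145 and 107 CPM in Il33flx against 54.2 CPM in Ctrl 1 and 166 CPM in Ctrl 2. A low value in Ctrl 1 was not particular to Sppl2a. Among genes of lysosomal sorting and targeting, Vps35 read 282 and 279 CPM in Il33flx, 140 CPM in Ctrl 1 and 327 CPM in Ctrl 2. Lamp2 was also lowest in Ctrl 1, at 47.1 CPM, but Igf2r was highest there, at 54.7 CPM.

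Markers of cell states also differed in Ctrl 1. Genes of mature migratory DCs summed to 2335 and 2504 CPM in Il33flx, against 3684 CPM in Ctrl 1 and 2287 CPM in Ctrl 2, with 10 of 11 log2 fold changes below 0. In that list Ccr7 read 475 and 415 CPM in Il33flx, 999 CPM in Ctrl 1 and 489 CPM in Ctrl 2. Xcr1, a marker of type 1 DCs, read 800 and 798 CPM in Il33flx, 506 CPM in Ctrl 1 and 841 CPM in Ctrl 2. The sum of the 10 type 1 DC genes was instead highest in Ctrl 1. It was 9724 and 10680 CPM in Il33flx, 11690 CPM in Ctrl 1 and 11200 CPM in Ctrl 2. The part of these markers in the deviations of Ctss, Ctsz, Ctsb and Lgmn was not tested. In bulk libraries fewer cells of a type and less RNA per cell cannot be told apart.

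Macrophages carry much of the lysosomal protease of spleen, so their markers were read beside the members. All 22 macrophage and monocyte genes were detected, and they summed to 2206 and 2075 CPM in Il33flx and 2206 and 1982 CPM in Ctrl, most of it from Lyz2, Cd68 and Csf1r, which DCs also express. None of the 22 was at 0. Mertk was at 1.27 to 2.39 CPM over the 4 libraries, Cd163 at 5.18 to 6.41 CPM, C1qa at 4.69 to 6.63 CPM, C1qc at 10.2 to 12.1 CPM, C1qb at 17.8 to 26.1 CPM, Vcam1 at 35.3 to 51.8 CPM and Adgre1 at 54.6 to 76.2 CPM. Of the 22, 0 were called, and their part in the values of the members was not tested. Cd14 had the smallest p, with 48.9 and 52.1 CPM in Il33flx and 32.2 and 34.1 CPM in Ctrl (unadjusted p = 0.0155, adjusted p = 0.995, edgeR).

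Markers of cells other than DCs moved with the groups in part. Of 115 entries in 10 cell type lists, DC lists included, 0 were called (smallest adjusted p = 0.551, edgeR). Irf4 was listed both for type 2 DCs and for plasma cells. B cells also make cathepsin S, and 10 of 11 B cell genes were higher without overlap, with a median log2 fold change of 0.90. Of all genes tested, 15.4% were higher without overlap and 14.9% lower. The 11 genes summed to 1158 and 1017 CPM in Il33flx and 1308 and 965 CPM in Ctrl, with overlapping groups. Most of that sum was Ighm, at 1034 and 915 CPM in Il33flx and 1243 and 904 CPM in Ctrl. Of 12 erythroid genes 8 were higher without overlap, with a median of 1.78 and a summed level of 86.5 and 50.7 CPM in Il33flx and 44.4 and 40.3 CPM in Ctrl. Of 12 genes of T cells and EL4 cells 7 were lower without overlap and 1 higher, with a median of -0.51. Their part in the values of the members was not tested.

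**Figure D4:**
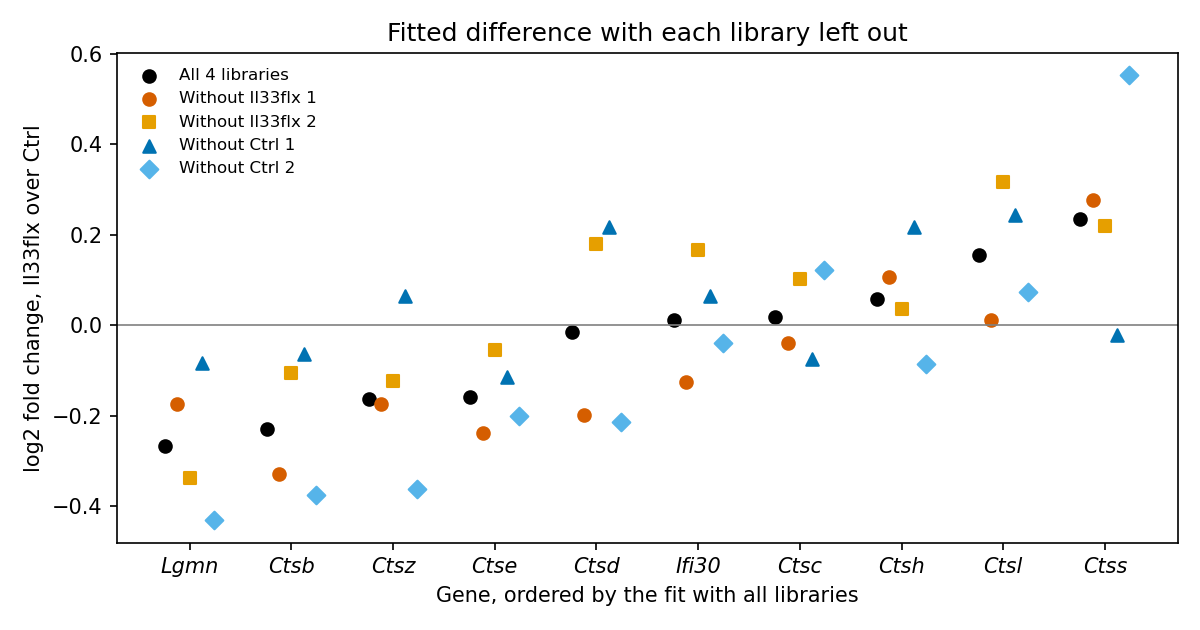
Fitted log2 fold change of Il33flx over Ctrl (y axis) for the 10 genes (x axis) with all 4 libraries and with each library left out. Without Ctrl 1 the value of Ctss moved to -0.02 and that of Ctsz to 0.06, and without Ctrl 2 that of Ctss was 0.55 and that of Lgmn -0.43.

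Other genes were read from 7 lists of proteases, inhibitors and related genes, with 102 symbols, of which 78 genes passed the filter. In the comparison of Il33flx with Ctrl 0 of the 78 were called higher and 0 lower (adjusted p = 0.995 or above, edgeR), against the same background of 0.00667%. The cathepsins outside the 10 members had 5 tested genes, of which Ctsa was most abundant at 447 and 456 CPM in Il33flx and 581 and 400 CPM in Ctrl. Ctsg, a serine protease of neutrophil granules, read 10.0 and 7.60 CPM in Il33flx and 4.10 and 1.98 CPM in Ctrl, a log2 fold change of 1.54 (unadjusted p = 0.0086, adjusted p = 0.995, edgeR), and without Ctrl 1 it was called at 2.16 (adjusted p = 0.0181, edgeR). Beside it, 12 neutrophil and granulocyte precursor genes summed to 710 and 495 CPM in Il33flx and 423 and 395 CPM in Ctrl. Of the 12, 4 were higher without overlap and 0 lower, against 15.4% and 14.9% of all genes tested. Their median log2 fold change was 0.40, with 2 below 0, Ly6g at -0.20 and Retnlg at -0.05. Elane, at the upper end, read 28.4 and 21.6 CPM in Il33flx and 11.7 and 4.10 CPM in Ctrl. The part of these cells in the value of Ctsg was not tested. Ctsw, a protease of cytotoxic lymphocytes, had 6.54 and 3.87 CPM in Il33flx and 10.5 and 6.28 CPM in Ctrl.

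The listed inhibitors, some of cathepsins and some of other proteases, showed no call either. Cst3, the gene of the secreted inhibitor cystatin C and a marker of DCs, read 9356 and 9386 CPM in Il33flx and 12250 and 9782 CPM in Ctrl. It was lower without overlap, at a log2 fold change of -0.23 ± 0.19 SE (95% interval -0.70 to 0.23, adjusted p = 0.995, edgeR), with Ctrl 1 the highest library, and -0.05 without Ctrl 1. Cstb, the cytosolic stefin B gene, was almost level at 31.5 and 30.4 CPM in Il33flx and 31.0 and 31.2 CPM in Ctrl. Serpinb1a, a serpin against granule serine proteases, read 40.9 and 50.5 CPM in Il33flx and 30.7 and 30.6 CPM in Ctrl (log2 fold change 0.58, unadjusted p = 0.0275, adjusted p = 0.995, edgeR). Of 23 listed inhibitors 11 were tested, with 5 log2 fold changes above 0, 6 below 0 and a median of -0.0079.

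Other listed peptidases, not all of them enzymes of endosomes or lysosomes, lay mostly near 0 in log2 fold change, with a median of -0.12 over 17 tested genes. Asprv1, an aspartic protease gene, read 10.9 and 9.05 CPM in Il33flx and 20.9 and 13.8 CPM in Ctrl (log2 fold change -0.80, unadjusted p = 0.0278, adjusted p = 0.995, edgeR), with a log2 fold change of -0.46 without Ctrl 1. The carboxypeptidase gene Scpep1 had 173 and 191 CPM in Il33flx and 253 and 200 CPM in Ctrl. Napsa, the gene of another aspartic protease, was more abundant than Ctsd in CPM, at 772 and 788 CPM in Il33flx and 974 and 764 CPM in Ctrl.

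The substrates and loading machinery of MHC class II had 11 tested genes, 4 above and 7 below 0 in log2 fold change, with a median of -0.10. Cd74, the invariant chain gene and substrate of cathepsin S, read 30110 and 34040 CPM in Il33flx and 40060 and 30660 CPM in Ctrl (log2 fold change -0.14, adjusted p = 0.995, edgeR), and its log2 fold change was 0.07 without Ctrl 1. H2-DMb2 and H2-Ob, subunits of the peptide exchange factor and of its modulator, were higher without overlap, which is 2 of 11 genes against 15.4% of all genes tested. H2-DMb2 read 390 and 385 CPM in Il33flx and 315 and 326 CPM in Ctrl, and H2-Ob read 285 and 310 CPM in Il33flx and 261 and 261 CPM in Ctrl (adjusted p = 0.995 each, edgeR).

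Genes that deliver or set the activity of lysosomal enzymes were likewise without a call. Of 15 genes for mannose 6-phosphate sorting and lysosomal targeting, 6 had log2 fold changes above 0 and 9 below 0. The smallest p belonged to Lamp1, a lysosomal membrane protein gene, at 201 and 230 CPM in Il33flx and 271 and 274 CPM in Ctrl (unadjusted p = 0.0888, adjusted p = 0.995, edgeR). Tfeb, a transcription factor for lysosomal genes, read 76.6 and 81.6 CPM in Il33flx and 79.2 and 71.7 CPM in Ctrl, and its relative Tfe3 read 67.9 and 63.0 CPM in Il33flx and 85.2 and 70.3 CPM in Ctrl. All 8 genes of the phagosomal NADPH oxidase and proton channel, which slow acidification of phagosomes in DCs, had log2 fold changes below 0. Of all genes tested, 51.8% were above 0. The 8 values ran from -0.27 to -0.023, with a median of -0.067, and that of Cybb was -0.004 with library size alone. Lower without overlap were 3 of the 8, against 14.9% of all genes tested. Cybc1, needed for making the oxidase, read 207 and 216 CPM in Il33flx and 290 and 220 CPM in Ctrl (log2 fold change -0.27, unadjusted p = 0.22, adjusted p = 0.995, edgeR), and its log2 fold change was -0.04 without Ctrl 1.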

How the data were processed

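Poly(A) RNA of 4 libraries of sorted DCs, 2 Il33flx and 2 Ctrl, was counted per gene. The deposited counts are whole-number read counts that the authors had not normalized, made with Trimmomatic 0.39, STAR and HTSeq on GRCm38, per the submitters' processing notes. The sources used here do not give other versions, the annotation release or the strand setting, so reads of overlapping genes on opposite strands cannot be told apart. The 5 rows that name no gene stayed out. They held 21.9% to 23.1% of reads as not unique, 3.22% to 4.93% without a feature and 2.62% to 2.74% as ambiguous.

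The authors' deposited DESeq2 table of 15001 genes holds signal values (counts divided by a size factor), the authors' log2 fold changes, the authors' score (a Wald statistic) and the authors' p-values, per the file headers. It supplied symbols. GENCODE M21 supplied coordinates for 45229 of 46078 rows.

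Differences of Il33flx from Ctrl were tested on 14995 genes with edgeR 4.0.16 in R 4.3.3 (glmQLFTest after filterByExpr and TMM, no covariate). P-values were Benjamini-Hochberg adjusted over all of them, with a threshold of 0.05. A standard error is the log2 fold change over the square root of F. With 2 libraries against 2, a two-sided exact permutation test of a single value cannot go below p = 0.333, and none was run. Alternatives used DESeq2 1.42.0, limma-voom (limma 3.58.1), other scalings and filters, a replicate block and leaving out each library. The procedure was also run on simulated data. These held no library set apart like Ctrl 1, and their set changes were larger than those fitted for the members.

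The members and gene lists were chosen with earlier results of these data known. The naming rule took the members, up to 3 genes of smallest p per list, and Cst3, Cd74, H2-Ab1, Sppl2a, Tfeb and Il33. Other genes were named after their values were seen. The catalytic motif was widened after seeing that Ctss had no match.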

Additional observations from a re-analysis of the deposited data

How the results depend on the processing

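The 0 calls among the 10 members held under all 11 alternatives, where the lowest adjusted p of any member was 0.142. The count of calls over all genes, 1, was again 1 with DESeq2 size factors in edgeR and with the filter of at least 1 CPM in 2 libraries. It was 0 with library size alone, with limma-voom and with no filter on low counts, 53 with DESeq2 (32 higher), 33 with the replicate block and 0 to 36 with each library left out. The cause was not tested. The replicate block rests on a number only, since the labels do not pair animals, and the deviations of same-numbered libraries correlated at -0.0323 across 14995 genes. It changed no call and no direction of a member (median log2 fold change -0.0020).

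The median log2 fold change of the members ran from -0.15 to 0.068 with each library left out. Of 110 member values under the alternatives, 98 kept direction and side of the threshold and 12 changed sign. Among those that changed sign were Ctss, whose main value of 0.23 was the highest of the members, and Ctsz, at -0.16. Ifi30 was at -0.0070 with DESeq2 size factors and with DESeq2, and Ctsd was at 0.072 with library size alone. With each library left out, Ctss ran from -0.022 to 0.55, Ctsz from -0.36 to 0.064, Ctsd from -0.21 to 0.22, Ctsh from -0.086 to 0.22, Ctsc from -0.075 to 0.12 and Ifi30 from -0.13 to 0.17. Among other genes, Sppl2a ran from -0.39 to 1.21, Cacnb3 from -1.203 to 0.13, Fscn1 from -1.385 to 0.030, Ly6d from -0.23 to 1.16, Siglech from -0.0096 to 0.81, Igf2r from -0.69 to 0.050, Serpinb9 from -0.38 to 0.050, H2-DMa from -0.39 to 0.030, Cd74 from -0.33 to 0.073, H2-Ab1 from -0.25 to 0.066, Cybb from -0.21 to 0.069 and Tfeb from -0.0081 to 0.15.

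The lowest count of a member was 782. Fits without 1 library assume that the lone one of its group varies like the others.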
